A study of Mus musculus with 6 samples.

Results

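Oxidative phosphorylation is the process by which mitochondria pass electrons from nutrients to oxygen and use the energy released to make ATP. Complex I takes electrons from NADH and complex II takes them from succinate. Both hand them to coenzyme Q, from which complex III passes them by way of cytochrome c to complex IV, the oxygen-consuming enzyme. Complexes I, III and IV pump protons across the inner membrane, and complex V, the ATP synthase, lets them flow back to make ATP. In marrow, red cell precursors and dividing progenitors rely strongly on mitochondria, while mature neutrophils, which are abundant there, are known for their reliance on glycolysis.

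The genes were taken by symbol, as those that start with Nduf, Uqcr, Atp5 or Cox4 to Cox8, together with Sdha, Sdhb, Sdhc and Sdhd, and without Cox6a2. This gave 88 genes out of 19938 with a probe set of 1 symbol, and for each the probe set with the highest mean over all 6 arrays was used. They comprised 34 subunits and 7 assembly factors of complex I, 4 genes of complex II, 8 of complex III, 16 of complex IV, 17 of complex V and 2 others. Ndufa4 was counted with complex IV, where its protein is now placed. The 2 others were Cox7a2l, which helps join complexes III and IV, and Ndufa4l2, a relative of Ndufa4 that low oxygen induces. Cox7c and Ndufb4 had only probe sets that they share with another symbol.

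The study compared RNA from bone marrow of wild type mice (3 arrays) with that of mice with type 2 diabetes (3 arrays). The marrow came from femurs and tibiae and received no further treatment, and the labels give all animals as males of 10 weeks. The genotype field reads BKS.Cg-Dock7m +/+ Leprdb/JNju for wild type and BKS.Cg-Dock7m -/- Leprdb/JNju for diabetic animals. Both fields name the BKS strain, Dock7m, a coat colour allele, and Leprdb, the loss-of-function allele of the leptin receptor that causes obesity and diabetes when homozygous. Animals with that allele on both chromosomes lack leptin receptor signalling in the whole body, so obesity and high glucose cannot be told apart in this model. Beyond this name the labels do not give the alleles of the wild type animals. Values are log2 signals from RMA, robust multi-array averaging, a method that makes the distributions of the arrays alike. The labels do not tell single animals from pools, so the p-values reflect only how far these samples lie apart, which may be technical.

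The arrays departed from their labels in 1 respect. Xist, the RNA made from an inactive X chromosome in females, had a log2 signal of 7.04 on wild type replicate 1 and of 12.64 to 12.84 on the other 5 arrays. The Y-linked Eif2s3y was at 9.34 on wild type replicate 1 and at 4.02 to 4.37 on the others, and Uty and Kdm5d followed the same split. Only wild type replicate 1 thus read as male, although every array is labelled male, and the set as a whole, complexes I to V and the genes that moved most are given below with and without it. Among genes that mark marrow cells, late neutrophil genes averaged 13.16 to 13.36 per array and erythroid genes 11.42 to 12.02. B cell precursor genes averaged 10.35 to 11.47. These means cover only listed genes that passed the filter on low signals used below, which left out the B cell precursor genes Vpreb1 and Rag2. They cannot by themselves show that a cell type was present on each array. The median log2 signal over all probe sets lay between 7.67 and 7.73.

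Some promoters of these genes hold short sequences that known regulators of mitochondrial genes bind, and a few are shown to make this visible. RefSeq promoters of GRCm38.p6 matched 73 of the 88 genes, with 78 promoters of 300 bases, 250 before and 50 after the start. The core motif of NRF1 (nuclear respiratory factor 1), a palindrome of GC-rich ends around a short centre whose matches are in capitals in the sequences of Sdha, occurred on either strand in 24.4% of these promoters, against 6.38% of the promoters of protein-coding genes and 4.6% of all promoters. The letters CCGGAAG, a core bound by ETS factors such as GABP, occurred in 23.1% against 11.6% and 8.86%, and AAGATGGC, bound by YY1, in 12.8% against 3.05% and 2.75%. TATAAA, the TATA box, occurred in 11.5% against 12.6% and 13.6%. Median GC content was 58.0% in the genes' promoters and 56.3% in those of protein-coding genes, and matches of the motifs may overlap. A match describes letters only and is not a binding site.

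The 250 bases before the start are printed 5′ to 3′ for 6 promoters, with NRF1 and ETS matches in capitals. Sdha and Sdhd belong to complex II, Cox6a1 to complex IV and Atp5k to complex V, and they need not be typical of these complexes. Cox6a1 was the only complex IV gene with a promoter here that held an NRF1 match, and Sdhb held none. Ndufs8 and Cox7b, whose log2 changes were among the lowest, held no match before the start. Among other genes with a low log2 change, Atp5g2 held an NRF1 match in its promoter and Atp5g1 held no match. Ndufa2, with the lowest change, was not among the genes with a promoter. The 6 were chosen after their matches and values were seen.
Sdha (chr13:74350241-74350490, minus strand): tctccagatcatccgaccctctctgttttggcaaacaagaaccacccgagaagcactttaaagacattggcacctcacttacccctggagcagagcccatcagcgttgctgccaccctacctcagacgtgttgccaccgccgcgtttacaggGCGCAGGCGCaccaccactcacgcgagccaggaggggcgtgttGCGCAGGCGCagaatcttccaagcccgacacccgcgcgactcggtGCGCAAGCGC
Sdhd (chr9:50603850-50604099, minus strand): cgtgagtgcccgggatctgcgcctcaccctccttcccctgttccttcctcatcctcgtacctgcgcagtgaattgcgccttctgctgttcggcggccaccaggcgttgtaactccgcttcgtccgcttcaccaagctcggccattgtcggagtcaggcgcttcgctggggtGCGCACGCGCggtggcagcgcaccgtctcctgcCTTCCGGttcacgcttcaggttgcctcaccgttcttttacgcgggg
Cox6a1 (chr5:115348959-115349208, minus strand): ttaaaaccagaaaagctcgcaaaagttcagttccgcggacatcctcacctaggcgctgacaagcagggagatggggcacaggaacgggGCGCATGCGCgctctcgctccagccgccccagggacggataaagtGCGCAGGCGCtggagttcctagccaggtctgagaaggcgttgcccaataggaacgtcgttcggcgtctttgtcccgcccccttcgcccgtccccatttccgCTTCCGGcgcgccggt
Atp5k (chr5:108434400-108434649, minus strand): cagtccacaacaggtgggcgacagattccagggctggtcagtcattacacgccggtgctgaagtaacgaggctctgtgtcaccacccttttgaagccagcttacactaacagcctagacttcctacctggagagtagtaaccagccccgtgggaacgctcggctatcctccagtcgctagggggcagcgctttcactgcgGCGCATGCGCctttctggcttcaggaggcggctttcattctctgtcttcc
Ndufs8 (chr19:3912775-3913024, minus strand): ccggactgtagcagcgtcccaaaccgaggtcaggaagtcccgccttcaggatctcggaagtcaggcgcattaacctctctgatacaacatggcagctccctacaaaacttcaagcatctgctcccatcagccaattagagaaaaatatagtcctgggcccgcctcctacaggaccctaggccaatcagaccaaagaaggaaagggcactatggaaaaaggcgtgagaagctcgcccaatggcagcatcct
Cox7b (chrX:106015450-106015699, plus strand): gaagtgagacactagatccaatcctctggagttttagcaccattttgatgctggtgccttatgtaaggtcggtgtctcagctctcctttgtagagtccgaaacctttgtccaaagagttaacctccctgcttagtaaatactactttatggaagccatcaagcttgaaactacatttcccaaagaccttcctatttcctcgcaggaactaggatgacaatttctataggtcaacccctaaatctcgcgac
Sdha held 3 NRF1 matches, Cox6a1 held 2 with 1 ETS match, Sdhd held 1 of each, and Atp5k held 1 NRF1 match before the start and 1 ETS match after it. Ndufs8 held 1 ETS match after its start. The tested genes with an NRF1 match had a median log2 change of 0.005 between diabetic and wild type marrow (16 genes, 7 lower), and those without had -0.040 (51 genes, 32 lower). With an ETS match the median was 0.004 (18 genes) and without it -0.040 (49 genes), while with a YY1 match it was -0.055 (10 genes) and without it -0.019 (57 genes). These differences carry no test.

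The comparison asked whether the genes of the respiratory chain and ATP synthase differed in diabetic marrow. None of the 80 genes that passed the filter on low signals did so at the threshold of 0.05, in a limma model of all 11940 genes tested with Benjamini-Hochberg adjusted p-values, and the smallest adjusted p was 0.498. Over all genes, 49 passed, or 0.41%. At an unadjusted p under 0.05 there were 3, or 3.75%, against 7.16% of all genes: Ndufa2 and Ndufs8 of complex I and Cox7b of complex IV. These were lower in diabetic marrow, where the background is 3.17%, and 0 were higher, where it is 3.99%. Changes ran from -0.33 for Ndufa2 to 0.16 for Atp5k on the log2 scale, and their median was -0.020, against 0.005 for all genes tested.

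A p that misses the threshold does not show equal levels, so the intervals matter more here. For 78 of the 80 genes (97.5%) the 95% interval of the log2 change lay wholly between -0.5 and 0.5, which is a change of at most 1.41-fold either way; the background is 93.8%. The 2 exceptions were Ndufa2, whose interval reached -0.55, and Cox6b2, whose interval reached 0.53. The median residual SD between replicate arrays was 0.094 for these genes and 0.092 for all genes tested, so they were about as variable as other genes. In bulk marrow, fewer cells of a type and less RNA per cell cannot be told apart.

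**Figure D1:**
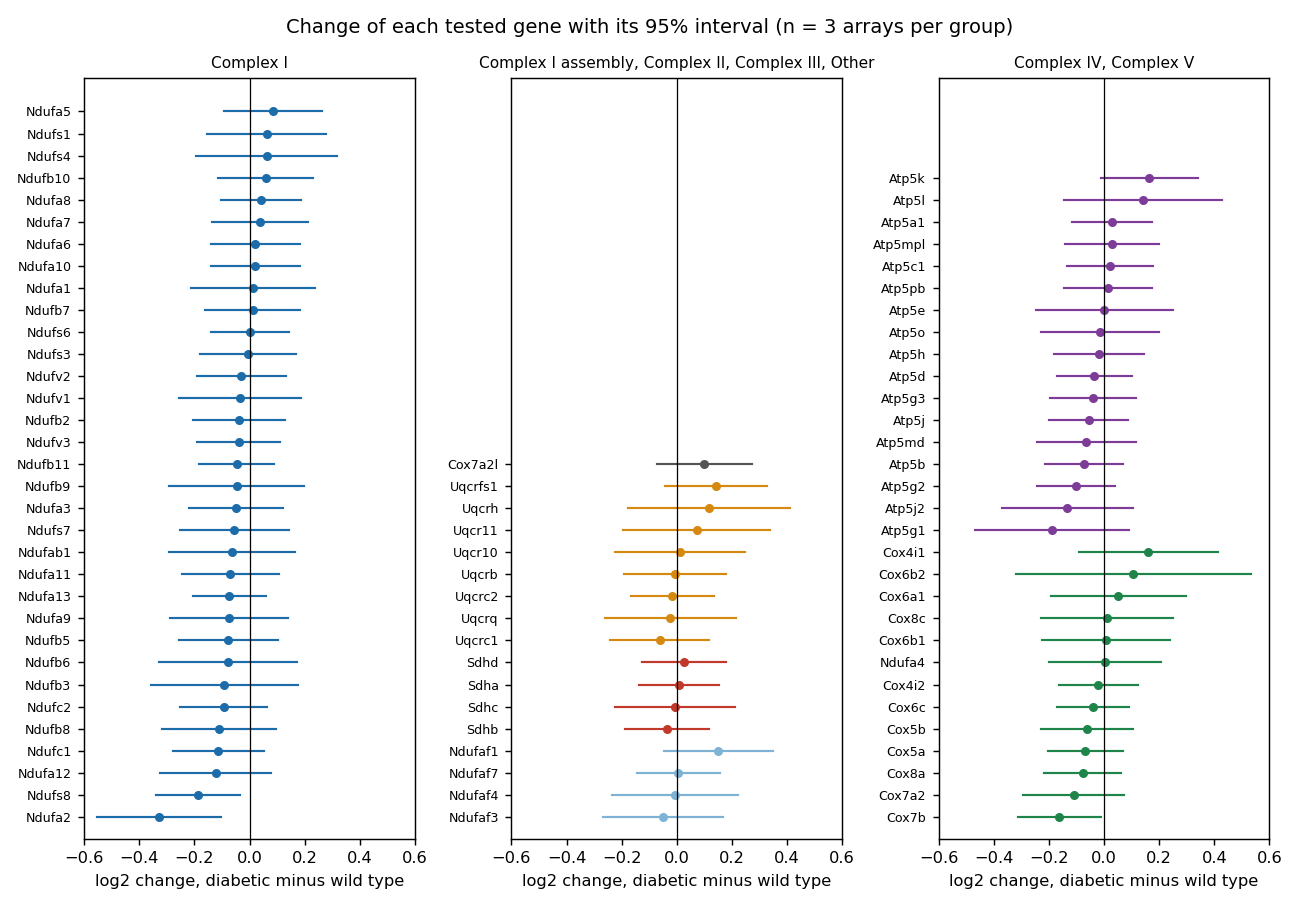
Log2 change, diabetic minus wild type, of the 80 tested genes by complex (points), with 95% intervals from the limma fit (lines; n = 3 arrays per group). The intervals of Ndufa2, Ndufs8 and Cox7b lie below 0, those of the other genes include 0, and Ndufa2 at -0.33 is the largest change.

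Complex I is the largest of the complexes. Of its 33 tested subunits 22 were lower and 11 higher in diabetic marrow, with a median log2 change of -0.047. Of all genes tested, 47.6% were lower. The mean signal of the 33 was 9.80, 9.86 and 9.98 on wild type replicates 1, 2 and 3 and 9.86, 9.84 and 9.81 on the diabetic arrays. The groups overlapped, and wild type replicate 3 was highest. Without that array 13 of the 33 were lower and the median turned to 0.026, and without wild type replicate 1 there were 28 lower with a median of -0.070.

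Ndufa2, a small accessory subunit of the part that takes up electrons from NADH, had log2 signals of 10.14, 10.15 and 10.40 in wild type and 9.84, 9.81 and 10.05 in diabetic marrow. Every diabetic value lay below every wild type value, and replicate 3 was the highest of each group. The change was -0.33 ± 0.10 (SE, n = 3 per group), or 1.26-fold lower (limma, Benjamini-Hochberg adjusted p = 0.498). When 1 array was left out it ran from -0.40 to -0.24, and it was -0.37 without wild type replicate 1.

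Ndufs8, a core subunit that carries iron-sulfur clusters on the electron path, had 11.23, 11.24 and 11.39 in wild type and 11.10, 11.06 and 11.13 in diabetic marrow. Its groups did not overlap either. The change was -0.19 ± 0.07 (SE, n = 3 per group), or 1.14-fold lower (limma, Benjamini-Hochberg adjusted p = 0.580). Without wild type replicate 3 it was -0.14 and without wild type replicate 1 it was -0.21.

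The other core subunits showed smaller differences. Ndufs1, the largest iron-sulfur subunit, was at 9.21, 9.25 and 9.49 in wild type and 9.43, 9.45 and 9.25 in diabetic marrow, a change of 0.06 ± 0.09 with overlapping groups. Ndufs7, another iron-sulfur subunit, was at -0.05 ± 0.08, Ndufs3 at -0.005, Ndufv1, which binds NADH, at -0.03 and Ndufv2 at -0.03. All 6 tested core subunits had their highest value on wild type replicate 3. Among accessory subunits Ndufc1 had -0.11 ± 0.07 and Ndufa5, with 0.09, the highest change. Of the 27 tested, 17 were lower.

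Ndufs5, an accessory subunit on the intermembrane side, lay just under the filter, with a mean signal of 7.51 against the limit of 7.52. The next gene above the limit was Ndufb2, with a mean of 7.68 and a change of -0.04. Ndufs5 read 7.63, 7.49 and 7.67 in wild type and 7.45, 7.49 and 7.35 in diabetic marrow. In a fit of all 21789 probe sets with 1 symbol and no filter its change was -0.17 ± 0.08 (SE, n = 3 per group; limma, unadjusted p = 0.0538, Benjamini-Hochberg adjusted p = 0.831). A second probe set, shared with the pseudogene Ndufs5-ps, gave -0.28 ± 0.07 (limma, unadjusted p = 0.00392, Benjamini-Hochberg adjusted p = 0.387), in a fit that also held probe sets of several symbols. Neither set passed the adjusted threshold.

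Assembly factors help build complex I and are not part of it. Of 7, 4 were tested, 2 lower and 2 higher, with a median change near 0 (-0.0005). Ndufaf1, which acts on the membrane arm, was at 8.65, 8.83 and 8.76 in wild type and 8.97, 8.98 and 8.74 in diabetic marrow, a change of 0.15 ± 0.09, and its groups overlapped through diabetic replicate 3. Without that array the change was 0.23 (limma, unadjusted p = 0.0215, Benjamini-Hochberg adjusted p = 0.791), and without wild type replicate 1 it was 0.10. Ndufaf3 was at -0.05 ± 0.09, Ndufaf4 at -0.007 and Ndufaf7, a methyltransferase, at 0.006. Ndufaf2, Ndufaf5 and Ndufaf6 lay under the filter, at -0.17, -0.06 and -0.006.

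Complex II is succinate dehydrogenase, an enzyme shared with the TCA cycle that pumps no protons. Its 4 genes had the narrowest range of the complexes, from -0.03 for Sdhb to 0.03 for Sdhd, and 2 were lower and 2 higher. Without wild type replicate 1, 3 were lower with a median of -0.027, and without wild type replicate 3, 1 was lower with a median of 0.048. Sdha, the subunit that oxidises succinate, read 11.06, 11.09 and 11.10 in wild type and 11.15, 11.12 and 11.00 in diabetic marrow, a change of 0.008 ± 0.062 (SE, n = 3 per group). Its 95% interval ran from -0.14 to 0.15, and the groups overlapped. Sdhb, the iron-sulfur subunit, was at -0.03 ± 0.07. The membrane anchors were at -0.006 ± 0.094 for Sdhc and 0.03 ± 0.07 for Sdhd.

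Complex III, the cytochrome bc1 complex, had 4 lower and 4 higher of 8 genes and a median of 0.002. Uqcrfs1, the Rieske iron-sulfur protein, read 8.79, 8.94 and 9.03 in wild type and 9.13, 9.09 and 8.97 in diabetic marrow, a change of 0.14 ± 0.08 that was 0.077 without wild type replicate 1 and 0.20 without wild type replicate 3. Uqcrh, the hinge protein that helps cytochrome c dock, read 10.54, 10.64 and 11.04 in wild type and 10.77, 10.95 and 10.86 in diabetic marrow. Its change was 0.12 ± 0.13 with all arrays and 0.27 ± 0.08 without wild type replicate 3, where limma's Benjamini-Hochberg adjusted p was 0.249. It was 0.016 ± 0.122 without wild type replicate 1, so its size depended on the wild type arrays used. Uqcrc1, a core protein, was at -0.06 ± 0.08 and Uqcrb, a small subunit near the coenzyme Q site, at -0.007. Cyc1, the complex III cytochrome that the symbol rule does not take, was at -0.11 ± 0.10. Without wild type replicate 3, 0 of the 8 genes were lower and the median was 0.095. It went the other way without wild type replicate 1, with 5 lower and a median of -0.020, and without wild type replicate 2, with 5 lower and a median of -0.034.

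Complex IV is cytochrome c oxidase, and several of its subunits exist as isoforms that tissues use in different proportions. Of 13 genes tested, 7 were lower and 6 higher, and the median was -0.021. Leaving out wild type replicate 1 gave 10 lower with a median of -0.043, and without wild type replicate 3 there were 8 with a median of -0.035. Cox7b, a small subunit needed for assembly, read 12.61, 12.63 and 12.77 in wild type and 12.52, 12.49 and 12.51 in diabetic marrow. Its groups did not overlap, and the SD was 0.015 over the diabetic arrays and 0.090 over the wild type arrays. The change was -0.16 ± 0.06 (SE, n = 3 per group), or 1.12-fold lower (limma, Benjamini-Hochberg adjusted p = 0.645). Its second probe set, from a fit with no filter, gave -0.12 ± 0.08. Cox7b is on the X chromosome, and without wild type replicate 1, the array that read as male, the change was -0.19, while without wild type replicate 3 it was -0.11. The other X-linked genes, Ndufb11 and Ndufa1, were at -0.05 and 0.01, and a second probe set of Ndufb11 had the opposite sign, 0.07 ± 0.08.

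Cox4i1, the common form of subunit 4, read 10.35, 10.43 and 10.54 in wild type and 10.72, 10.72 and 10.36 in diabetic marrow. Diabetic replicates 1 and 2 lay above all other arrays and diabetic replicate 3 lay within the wild type range. The change was 0.16 ± 0.11 (SE, n = 3 per group) and 0.28 ± 0.08 without diabetic replicate 3, where the adjusted p was 0.596 in limma. The change was 0.12 when wild type replicate 1 was left out and 0.099 when diabetic replicate 2 was. Cox4i2, the form linked to lung and low oxygen, was at -0.02 ± 0.06. Cox7a2, the common form of subunit 7a, was at -0.11 ± 0.08 and Cox8a at -0.08 ± 0.06. The muscle forms Cox7a1 and Cox8b lay under the filter, at -0.06 ± 0.08 and 0.11 ± 0.11, as did Cox7b2, at -0.02, and Ndufa4l2, at -0.003. Cox6b2, a form best known from testis, had the largest SE of the 80 genes, reading 8.73, 9.09 and 9.55 in wild type and 9.18, 9.37 and 9.13 in diabetic marrow, a change of 0.11 ± 0.18 that turned to -0.09 without wild type replicate 1 and was 0.32 without wild type replicate 3. Cox6b1, its common partner, was at 0.007, Cox6a1 at 0.05, Cox8c, another testis form, at 0.01, Cox6c at -0.04 and Ndufa4 at 0.004. Cox7c had 3 probe sets, all shared with Gm12338, which gave -0.05, -0.04 and 0.00 (-4.9e-05 unrounded).

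Complex V, the ATP synthase, is made of a catalytic head, F1, and a membrane part with a ring of c subunits and a stalk. Of 17 genes 10 were lower and 7 higher, with a median of -0.019. Leaving out wild type replicate 3 gave 7 lower and turned the median to 0.018, and without wild type replicate 1 there were 13 lower with a median of -0.055. In the head and central stalk, Atp5b, the catalytic beta subunit, was at -0.07 ± 0.06, Atp5a1 at 0.03 and Atp5c1 at 0.02. The ring subunit is encoded by Atp5g1, Atp5g2 and Atp5g3, which make the same mature protein. Atp5g1 read 11.74, 11.73 and 12.13 in wild type and 11.61, 11.59 and 11.83 in diabetic marrow, a change of -0.19 ± 0.12, and its groups overlapped through diabetic replicate 3. Atp5g2 read 12.20, 12.30 and 12.19 in wild type and 12.18, 12.10 and 12.11 in diabetic marrow, with no overlap and a change of -0.10 ± 0.06. Atp5g3 was at -0.04 ± 0.07. So the 3 ring genes were all lower by value, and none passed, with unadjusted p of 0.158, 0.136 and 0.573 in limma across all genes. The direction was no longer shared without wild type replicate 3, with Atp5g1 at -0.06, Atp5g2 at -0.12 and Atp5g3 at 0.02. Without wild type replicate 1 the 3 genes were all lower, with Atp5g1 at -0.25, Atp5g2 at -0.12 and Atp5g3 at -0.06.

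The e and g subunits of the membrane part stand where neighbouring ATP synthases join. Atp5k, subunit e, read 9.29, 9.37 and 9.51 in wild type and 9.55, 9.49 and 9.63 in diabetic marrow, a change of 0.16 ± 0.08 (SE, n = 3 per group; limma, Benjamini-Hochberg adjusted p = 0.729). Atp5l, subunit g, had 6 probe sets, whose changes ran from 0.14 to 0.18, and the one used gave 0.14 ± 0.12. Both genes overlapped between groups through wild type replicate 3. Without that array they were at 0.22 ± 0.07 and 0.29 ± 0.07, with adjusted p of 0.314 and 0.207 in limma. Both were smaller without wild type replicate 1, at 0.12 ± 0.08 and 0.05 ± 0.12. Atp5j2, subunit f, was at -0.13 ± 0.10.

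**Figure D2:**
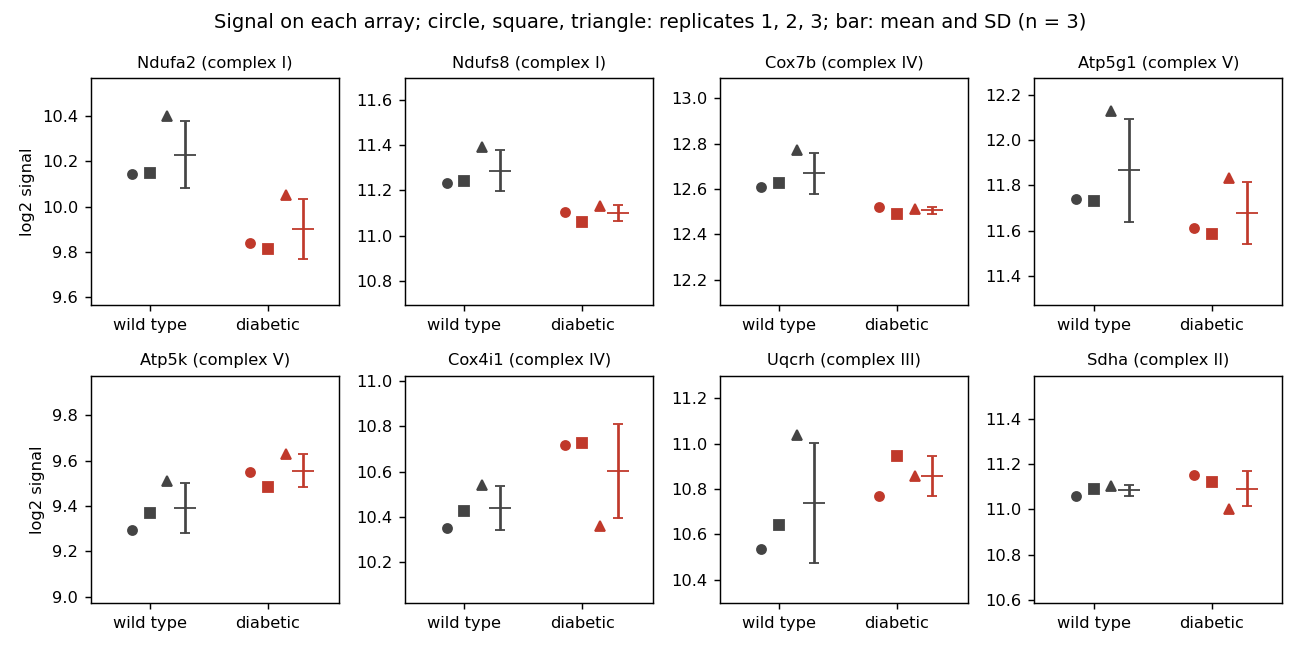
Log2 signal of 8 genes on each array (circle, square and triangle for replicates 1, 2 and 3), with the mean and SD of each group (n = 3); each panel spans 1 log2 unit. Ndufa2, Ndufs8 and Cox7b separate the groups. In these genes the triangle of wild type replicate 3, at 10.40, 11.39 and 12.77, stands above all other arrays. The same holds in Atp5g1 and Uqcrh, where it is at 12.13 and 11.04.

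Groups that did not overlap were found for 5 of the 80 genes (6.25%), Ndufa2, Ndufs8, Cox5a, Cox7b and Atp5g2, against 12.4% of all genes tested. The 5 were lower in diabetic marrow, where the background is 5.38%, and 0 were higher, where it is 6.99%. For Atp5g2 and Cox7b this held only for the probe set used. The other sets of Atp5g2, at -0.09 and -0.08, and of Cox7b, at -0.12, overlapped between groups. Cox5a, a matrix-side subunit of complex IV, was at -0.07 ± 0.06. Outside the complexes, Cox7a2l was at 0.10 ± 0.07 with overlapping groups.

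The signals of these genes varied together from array to array. Their mean log2 signal was 10.22, 10.26 and 10.40 on wild type replicates 1, 2 and 3 and 10.30, 10.29 and 10.24 on diabetic replicates 1, 2 and 3. Wild type replicate 3 held the highest value of 51 of the 80 genes (63.7%), against 25.2% of all genes tested, and the lowest value of 0, against 23.9%. The share with their highest value there was 87.5% in complex III, 69.2% in complex IV, 64.7% in complex V and 63.6% in complex I, while in complex II it was 2 of 4 and among the assembly factors 1 of 4. The highest value lay on diabetic replicate 1 for 13.8% of the genes (15.9% of all genes tested), on diabetic replicate 2 for 12.5% (14%), on diabetic replicate 3 and wild type replicate 1 for 3.75% each (17.3% and 16.9%) and on wild type replicate 2 for 2.5% (10.7%). The lowest value lay on diabetic replicate 3 for 33.8% (16.6%), on wild type replicate 1 for 32.5% (22.7%), on diabetic replicate 2 for 18.8% (20%) and on diabetic replicate 1 and wild type replicate 2 for 7.5% each (7.62% and 9.21%). The low values were thus shared mainly between wild type replicate 1 and diabetic replicate 3. Over the 6 arrays the median correlation of a gene with the mean of the other genes was 0.64, and 75 of 80 correlations were above 0. For other genes tested the median correlation with the mean of the 80 was 0.008. These points share arrays and normalization, and no test is given. The 5 genes with a correlation below 0 were Cox8c, with -0.69, Ndufaf7, with -0.45, Ndufa3, with -0.36, Cox4i2, with -0.30, and Ndufs4, with -0.21.

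**Figure D3:**
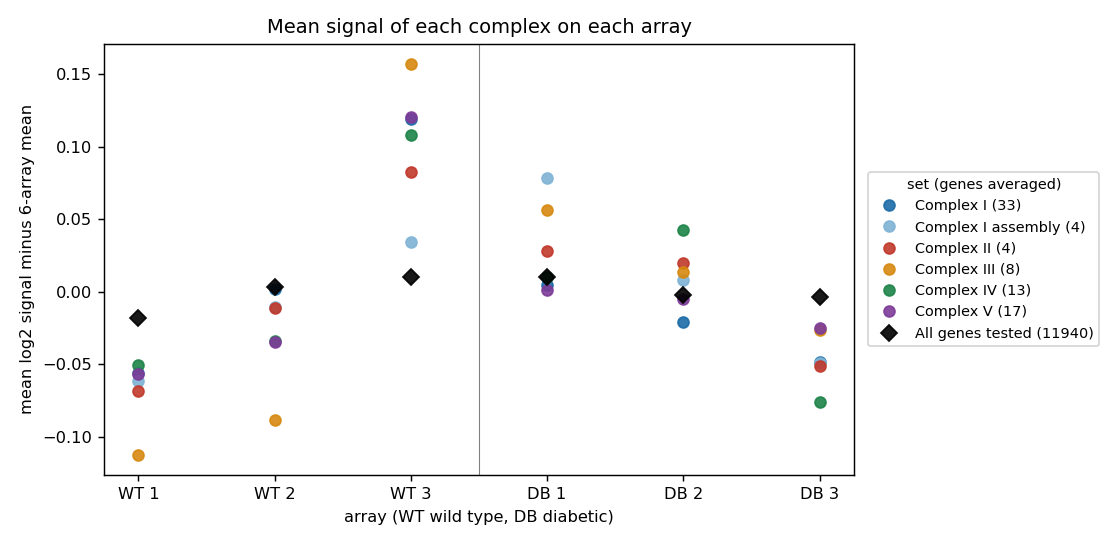
Mean log2 signal of the tested genes of each complex on each array (coloured circles), less the mean of that set over the 6 arrays, with all genes tested as black diamonds. All complexes lie above their mean on wild type replicate 3, most of all complex III, whose mean there was 10.64 against 10.37 to 10.54 elsewhere.

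**Figure D4:**
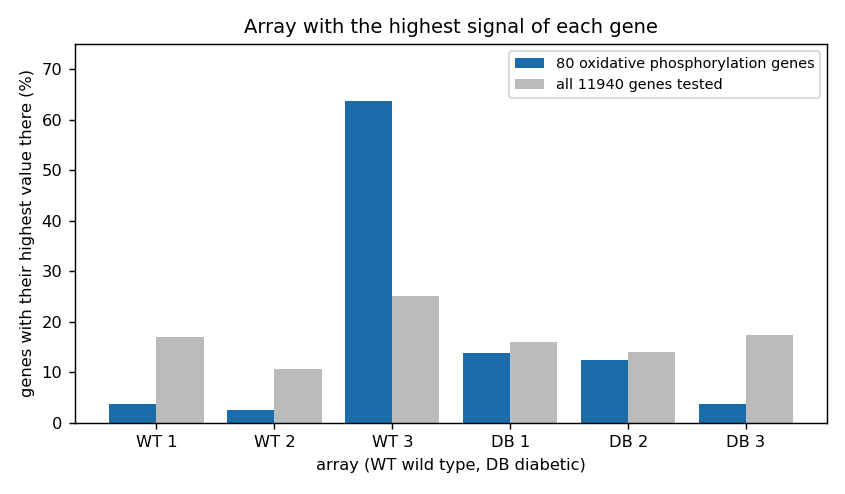
Share of genes whose highest signal fell on each array, for the 80 tested oxidative phosphorylation genes (blue) and all genes tested (grey), in percent. Wild type replicate 3 holds 63.7% of the former and 25.2% of the latter.

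Other gene lists also stood apart on wild type replicate 3. The 9 cell cycle genes averaged 11.64 there and 11.26 to 11.50 elsewhere, and the 6 tested erythroid genes averaged 12.02 there, 11.95 on diabetic replicate 2 and 11.42 to 11.62 on the others. The 8 tested B cell precursor genes averaged 10.35 there, the lowest of all arrays, and 10.45 to 11.47 elsewhere. Late neutrophil genes had their lowest mean there, 13.16. Between groups, the 8 B cell precursor and the 6 tested plasma cell genes were all lower by value in diabetic marrow, with medians of -0.36 and -0.29, and 0 passed the adjusted threshold in limma. The medians were 0.045 for late neutrophil, 0.015 for erythroid, -0.062 for cell cycle, 0.024 for skeletal muscle, 0.13 for adipocyte and -0.14 for osteoblast genes. The part of these cell types in the results was not tested. Cox6a2, the muscle form of subunit 6a that the gene rule leaves out, was at -0.34 ± 0.06 (limma, Benjamini-Hochberg adjusted p = 0.108), and the other skeletal muscle genes tested were higher by value.

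The direction of the whole set depended on which arrays were used. With all arrays 47 of 80 genes were lower in diabetic marrow (58.8%), without wild type replicate 3 there were 31, and the median log2 change went from -0.020 to 0.026. Without wild type replicate 1, 61 of 80 were lower with a median of -0.048. Without diabetic replicate 3, 41 were lower and the median was near 0 (-0.0008). At an unadjusted p under 0.05 the count without wild type replicate 3 was 8, 1 lower and 7 higher. The lower gene was Ndufa2, and the higher genes were Uqcrh, Uqcr11, Uqcrfs1, Atp5l, Atp5k, Cox6b2 and Ndufa5. Of all genes, 10.4% had such a p in that fit, about the share among the 80, and the split of all genes by direction is not given here. Without wild type replicate 1 it was 4 of the 80, all lower, Ndufa2, Ndufs8, Ndufc1 and Cox7b. There 6.95% of all genes had such a p in either direction, and the split by direction is again not given. In each fit that left out an array, 0 of the 80 genes passed the adjusted threshold. Weighting arrays by their estimated quality was the 1 alternative in which some did, 6 of the 80. Ndufa2 and Ndufc1 were lower and Uqcr11, Atp5l, Atp5k and Ndufa5 higher. That fit gave wild type replicate 3 a weight of 0.283 and wild type replicate 2 a weight of 6.78, and the weight estimation did not converge. It called 1131 of the 11940 genes tested, a larger share than among the 80.

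**Figure D5:**
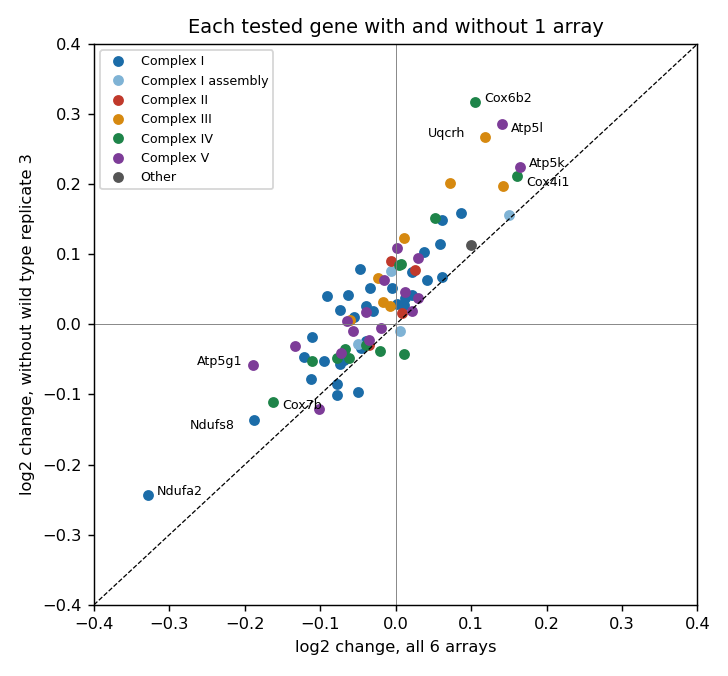
Log2 change, diabetic minus wild type, of each tested gene with all 6 arrays (x axis) and without wild type replicate 3 (y axis), coloured by complex, with the line of equality dashed. Most points lie above the line, and the median moves from -0.020 to 0.026, while Ndufa2 stays lowest at -0.24.

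The wider mitochondrial system was described by lists of other genes. The mitochondrial ribosome, which makes the subunits encoded by mitochondrial DNA, had 55 of 76 tested genes lower and a median of -0.038, and 5 had an unadjusted p under 0.05, all lower, against 7.16% of all genes tested, 3.17% lower. Wild type replicate 3 held the highest value of 45 of the 76. Assembly factors outside the symbol rule had 23 of 34 lower and a median of -0.061, and wild type replicate 3 held the highest value of 17. Lyrm7, which helps insert the Rieske protein into complex III, was at -0.25 ± 0.08 (limma, Benjamini-Hochberg adjusted p = 0.551). The TCA cycle, which supplies the electrons, had 9 of 16 lower and a median of -0.006, with Pdha1, a subunit of pyruvate dehydrogenase, at 0.14 ± 0.06. Wild type replicate 3 held the highest value of 10 of these 16. For coenzyme Q synthesis it did so for 2 of 10 genes and for electron carriers for 4 of 11, against 25.2% of all genes tested. Coenzyme Q synthesis had 5 of 10 lower and a median of -0.016. Electron carriers had 4 of 11 lower and a median of 0.021, with Sqor, which feeds electrons from sulfide to coenzyme Q, at 0.23 ± 0.08, and Cycs, cytochrome c, at -0.08 ± 0.07.

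Among 17 tested regulators of mitochondrial biogenesis 9 were lower, with a median of -0.030. Nrf1, whose motif is shown above, was at 0.06 ± 0.06, Gabpa, an ETS factor, at 0.04 ± 0.06, Yy1 at 0.09 ± 0.07 and Tfam, which packages and transcribes mitochondrial DNA, at -0.05 ± 0.11. Mterf3, a repressor of mitochondrial transcription, was at -0.16 ± 0.07. In mitochondrial DNA, 2 genes had a probe set of 1 symbol, ND3 at -0.12 ± 0.10 and COX2 at -0.004. On wild type replicate 3, where the nuclear genes were high, they read 12.06 and 13.31, below every other array but diabetic replicate 3, at 11.95 and 13.23. No gene of these lists passed the adjusted threshold of the limma fit.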

How the data were processed

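The deposited values are log2 signals. The submitters' processing notes name RMA and Affymetrix Expression Console as the tools the authors used. RNA was extracted with Trizol and RNeasy columns, amplified and biotinylated, per the labels' protocols; the label field names Cy3 instead. Of 35556 probe sets, 21789 had 1 symbol in the platform annotation, 1621 had several and 12146 had none listed. Each gene was represented by the probe set with the highest mean, and 11940 genes at or above the 40th percentile (7.52) were tested with limma 3.58.1 (lmFit, eBayes, two-sided, Benjamini-Hochberg, threshold 0.05) in R 4.3.3. The 8 of 88 genes below it were fitted apart with no filter. All 88 matched RefSeq by gene ID. Array data carry no read depth: 3 arrays per group limit the precision.

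On simulated data with 11940 genes, 72.5% of genes set 0.5 lower and 52.5% of those set 0.5 higher on the log2 scale were called, with 11 false calls. Each share rests on 40 genes, too few to compare the directions. Noise was drawn separately for each gene and array, whereas the oxidative phosphorylation genes varied together, so the shares need not hold for them. Named genes were the markers Ndufs1, Uqcrc1 and Sdha, complex II, the genes with the smallest p and highest signal in each complex, the largest changes and isoform partners; other genes were named after their values were seen. Genes, lists and tests were chosen with earlier results of these data known. Alternatives changed the filter, normalization, probe set rule, variance model, array weights, replicate block and arrays used.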

Additional observations from a re-analysis of the deposited data

How the results depend on the processing

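The count of oxidative phosphorylation genes past the adjusted threshold was 0 in all alternatives but array weights. With array weights 1131 of the 11940 genes tested passed, and 6 of the 80 oxidative phosphorylation genes, a smaller share. In that fit 18 of the 80 had an unadjusted p under 0.05, against 27.3% of all genes. The medians were 0.072 for complex I assembly and 0.14 for complex III, and the weight estimation did not converge. With the replicate number as a block 2 genes passed, and 0 of the 80. Same-numbered arrays deviated with correlations of 0.33, -0.04 and -0.05, which do not settle whether the numbers pair the samples. Leaving out 1 array gave 3 to 68 genes past the adjusted threshold (68 without wild type replicate 3, 3 without diabetic replicate 2), 1 to 8 of the 80 oxidative phosphorylation genes with an unadjusted p under 0.05, against 4.10% to 10.4% of all genes, and complex I medians from -0.070 to 0.026. Among the named genes' values, 470 stayed on their side of the threshold or moved by less than the replicate spread, 3 moved by more, and 3 passed the threshold, all 6 with array weights. Small values among the 470 could still change sign. Sdha had the opposite sign in 5 of 15 alternatives and Cox6b1 in 6 of 15, while Ndufa2, Ndufs8 and Cox7b did so in 0 of 15. The filter over probe sets with 1 or more symbols (7.50) and the count of Ndufa4 in complex I were added after seeing the data.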
